A study of Mus musculus with 6 samples.

Results

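The NDRG family (N-myc downstream-regulated genes) was described in Neuro2a, a mouse neuroblastoma line that is used as a neuron-like model. Its members were chosen by symbol, as the rows of the gene count table with the symbols Ndrg1, Ndrg2, Ndrg3 and Ndrg4, which made 4 of 24421 gene rows. All 4 members passed the filter on low counts, as did 12820 genes in all. The cells of every sample had the wild-type genotype per the labels and carried an adenovirus (ADV) for 48 h. In the shFam172a group the virus delivered a short hairpin RNA against Fam172a (n = 3), and in the shCtrl group it delivered a control hairpin (n = 3). RNA of whole cultures was sequenced as read pairs, and 1 hairpin per group is named. The labels do not tell whether replicates were infected separately, so a p-value here covers only their spread, which could be technical. The title of the series concerns lactylation of histones by Fam172a in POMC neurons and the regulation of body energy.

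The family is named after its founder, Ndrg1, whose transcription the N-myc and c-Myc proteins repress. All members share an α/β-hydrolase fold, the scaffold of many enzymes, and are thought to lack its catalytic activity. Ndrg1 is a classical target of HIF, the hypoxia-inducible transcription factor, and its protein is phosphorylated by SGK1 and GSK3 kinases and takes part in recycling of membrane receptors. In the nervous system NDRG1 is best known from Schwann cells and oligodendrocytes, where its loss in humans causes a demyelinating neuropathy. NDRG2 is known from astrocytes, and Ndrg4 from neurons and heart. NDRG3 has been described in human cells as a protein that lactate binds and protects from the degradation that oxygen sensing sets off.

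In shFam172a cells Ndrg1 transcripts were 3.81-fold and Ndrg2 transcripts 2.78-fold as high as in shCtrl cells, while Ndrg3 and Ndrg4 were within 1.1-fold. The family was chosen by the measured fold change of this same contrast, in which Ndrg1 was known to be among the largest rises, so its levels, folds and shares are given as a description, without a test. Per length of exon, Ndrg2 was the most abundant member in shFam172a cells and Ndrg4 in shCtrl cells.

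The members lie on 4 chromosomes (GENCODE M21 annotation of GRCm38, the assembly also called mm10). Ndrg1 (ENSMUSG00000005125.13) spans chr15:66929318-66969640 on the minus strand, with 16 merged exons of 6596 bases in all. Ndrg2 (ENSMUSG00000004558.15) is the shortest locus, at chr14:51905271-51914158 on the minus strand, with 18 merged exons of 3397 bases. Ndrg3 (ENSMUSG00000027634.14) spans chr2:156927345-156992056 on the minus strand, with 17 merged exons of 8388 bases. Ndrg4 (ENSMUSG00000036564.17) spans chr8:95676980-95715119 on the plus strand, with 20 merged exons of 4893 bases. The exon lengths differ, so the order of the members' levels was taken only per kilobase of exon.

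The members are paralogs, and the coding sequences of their longest coding transcripts hold 394 (Ndrg1), 371 (Ndrg2), 388 (Ndrg3) and 404 (Ndrg4) codons. Pairwise identity over the aligned coding bases was 64.5% to 69.8%, lowest between Ndrg2 and Ndrg3 and highest between Ndrg1 and Ndrg4. The longest identical run between any pair was 31 bases, and no stretch of 50 bases in the annotated transcripts was shared by 2 members. With any other gene, 6.02% of such stretches of Ndrg1 and 2.72% of those of Ndrg3 were shared, and 0 of those of Ndrg2 and Ndrg4. For Ndrg1 nearly all of the shared stretches belonged to the opposite-strand transcripts Gm17035 and Gm2895, which overlap its exons over 419 and 137 bases and were not analysed here. The strand setting of the counting is not given in the sources used here, so read pairs from those transcripts and from Ndrg1 cannot be told apart over these bases.

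Ndrg1 differs from its paralogs by a tandem repeat near the end of its coding sequence. It is shown because it sets the member with the largest fold apart from the others. In the transcript Ndrg1-201, on chromosome 15, 3 units of 30 bases follow each other at coding bases 1012 to 1101, and 0 such units were found in the other members at an identity of at least 80%. Capitals mark bases that differ from unit 1, 5 in unit 2 and 3 in unit 3, in 5′ to 3′ order on the coding strand.
Ndrg1 unit 1: gagggcacccgtagccgctcccataccagc
Ndrg1 unit 2: gagggcCcccgAagccgctcGcaCaccagT
Ndrg1 unit 3: gagggGTcccgtagccgctcccataccagT

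The promoter windows of the members, from 250 bases before to 50 bases after a start in RefSeq (GRCm38.p6), were searched on both strands for 2 forms of the HIF core motif, ACGTG and GCGTG, and for the E-box CACGTG that MYC proteins bind, which contains ACGTG. Of 32851 windows of this length over all genes, 32.4% held GCGTG, 19.6% held ACGTG and 7.15% held CACGTG. Windows were found for 3 of the 4 members, 3 for Ndrg2, 2 for Ndrg3 and 4 for Ndrg4. Ndrg1 had 0 windows in the set used, so its promoter was not searched. The windows below are those with the most matches for each member that had a window. The first Ndrg2 window is shown beside them, and capitals mark the matched bases on either strand.
Ndrg2 window at chr14:51913439-51913738, minus strand: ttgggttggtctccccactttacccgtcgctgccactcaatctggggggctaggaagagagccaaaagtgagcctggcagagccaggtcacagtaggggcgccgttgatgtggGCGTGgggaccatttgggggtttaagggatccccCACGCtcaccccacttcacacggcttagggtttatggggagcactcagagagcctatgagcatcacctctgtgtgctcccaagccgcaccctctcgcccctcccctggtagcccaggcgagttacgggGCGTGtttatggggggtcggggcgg
Ndrg2 window at chr14:51913955-51914254, minus strand: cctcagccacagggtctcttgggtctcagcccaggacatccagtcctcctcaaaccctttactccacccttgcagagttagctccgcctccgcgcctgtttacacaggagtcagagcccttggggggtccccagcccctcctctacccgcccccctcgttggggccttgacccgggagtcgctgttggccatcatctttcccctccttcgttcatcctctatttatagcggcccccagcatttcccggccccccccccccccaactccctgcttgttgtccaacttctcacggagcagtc
Ndrg3 window at chr2:156991654-156991953, minus strand: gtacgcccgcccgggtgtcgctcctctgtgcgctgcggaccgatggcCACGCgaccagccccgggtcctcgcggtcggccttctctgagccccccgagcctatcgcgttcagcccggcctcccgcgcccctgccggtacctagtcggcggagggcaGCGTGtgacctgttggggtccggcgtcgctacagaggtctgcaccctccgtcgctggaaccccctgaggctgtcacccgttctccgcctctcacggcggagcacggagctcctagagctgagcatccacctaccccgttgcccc
Ndrg4 window at chr8:95677513-95677812, plus strand: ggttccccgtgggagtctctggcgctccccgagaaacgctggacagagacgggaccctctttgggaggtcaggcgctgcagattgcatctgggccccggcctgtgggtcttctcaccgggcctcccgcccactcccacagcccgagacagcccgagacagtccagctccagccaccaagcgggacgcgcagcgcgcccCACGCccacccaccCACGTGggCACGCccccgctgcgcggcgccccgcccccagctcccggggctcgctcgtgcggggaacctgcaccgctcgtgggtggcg

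The first of these Ndrg2 windows had 3 matches to GCGTG, at positions -137, -103 and +26 from its start. The other printed Ndrg2 window, which is the most upstream, had 0 matches to any motif. A remaining Ndrg2 window overlaps the first and held 1 GCGTG, the same bases as the match at +26. Ndrg3 had 2 matches to GCGTG in the printed window and 0 in its other one. Ndrg4 had the most matches, with 2 ACGTG, 2 GCGTG and 1 CACGTG in the printed window, 1 GCGTG in another and 0 in the remaining 2. The CACGTG and both ACGTG matches of Ndrg4 overlap each other. Matches were therefore present in windows of Ndrg2, whose transcripts were higher in shFam172a cells, and in windows of Ndrg3 and Ndrg4, which differed little. A match is a sequence description and says nothing of binding.

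Library depth was 21690467 to 23409319 gene counts in shFam172a and 11250312 to 12820531 in shCtrl, so the members were counted less precisely in shCtrl. The hairpin's target Fam172a was at 8.91 ± 0.543 CPM (counts scaled to library depth) in shFam172a and 19.1 ± 0.470 CPM in shCtrl (SD, n = 3 each), a log2 fold change of -1.11 ± 0.092 (SE, edgeR adjusted p = 2.4e-12). The ribosomal precursor Rn45s moved with the groups as well, at 985 ± 177 CPM in shFam172a and 492 ± 78.2 CPM in shCtrl (edgeR adjusted p = 0.021), and its part in the results below was not tested. Of 13 neuroblastoma and sympathoadrenal markers, 12 were tested, and Hand2, a sympathetic neuron factor, was at 321 ± 0.795 CPM in shFam172a and 256 ± 3.65 CPM in shCtrl. Over all genes tested, 36.1% passed an edgeR adjusted p under 0.05, 17.5% higher and 18.6% lower in shFam172a. Since cultures were sequenced in bulk, more cells with a transcript and more transcript per cell cannot be told apart.

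Ndrg1, the founder of the family, had 963, 1074 and 1031 counts in the shFam172a libraries, against 163, 118 and 147 counts in the shCtrl libraries. After TMM scaling for depth this was 44.6, 46.1 and 46.4 CPM in shFam172a, against 14.0, 9.19 and 13.0 CPM in shCtrl. The groups were far apart, and shCtrl replicate 2 was the lowest library. The mean was 45.7 ± 0.923 CPM in shFam172a and 12.1 ± 2.53 CPM in shCtrl (SD, n = 3 each), a log2 fold change of 1.93 ± 0.082 (SE). Ndrg1 stood at place 12 from the highest log2 fold change among 12820 genes tested, and 0.85% of these genes had a log2 fold change of at least 1.

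Ndrg2, known as a tumour suppressor and astrocyte protein, had 1217, 1241 and 1141 counts in the shFam172a libraries, against 261, 224 and 206 counts in the shCtrl libraries. Scaled for depth, its level was 56.4, 53.2 and 51.3 CPM in shFam172a, against 22.4, 17.5 and 18.3 CPM in shCtrl. Here too every shFam172a library lay above every shCtrl library, and shCtrl replicate 1 was the highest control. The means were 53.6 ± 2.58 CPM in shFam172a and 19.4 ± 2.65 CPM in shCtrl (SD, n = 3 each). The log2 fold change of 1.47 ± 0.069 (SE) put Ndrg2 at place 30 from the highest.

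Ndrg3, which is studied for its control at the protein level by oxygen and lactate, had 1089, 1211 and 1101 counts in shFam172a, against 621, 681 and 539 counts in shCtrl. Its scaled level was 50.5, 51.9 and 49.5 CPM in shFam172a, against 53.2, 53.1 and 47.7 CPM in shCtrl. The groups overlapped, with both the highest and the lowest library in shCtrl. The means were 50.6 ± 1.23 CPM in shFam172a and 51.4 ± 3.12 CPM in shCtrl (SD, n = 3 each), a log2 fold change of -0.02 ± 0.051 (SE), and Ndrg3 stood at place 6970 among 12820 genes. The sign turned without shCtrl replicate 1 (0.005) or shCtrl replicate 2 (0.004). These counts bear on the transcript alone.

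Ndrg4, the neuronal and cardiac member, had 1331, 1465 and 1387 counts in shFam172a, against 679, 705 and 675 counts in shCtrl. Its scaled level was 61.7, 62.8 and 62.3 CPM in shFam172a, against 58.2, 54.9 and 59.8 CPM in shCtrl. The shFam172a libraries lay just above the shCtrl libraries, with a gap of under 2 CPM between the nearest of them. The means were 62.3 ± 0.579 CPM in shFam172a and 57.6 ± 2.49 CPM in shCtrl (SD, n = 3 each), a log2 fold change of 0.11 ± 0.047 (SE) at place 3611.

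In all, 3 of the 4 members had groups that did not overlap, each with shFam172a above. Among all genes tested, 46.0% had groups that did not overlap, 22.5% with shFam172a above. Because the members were chosen with this contrast known, nothing is read from that count.

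**Figure D1:**
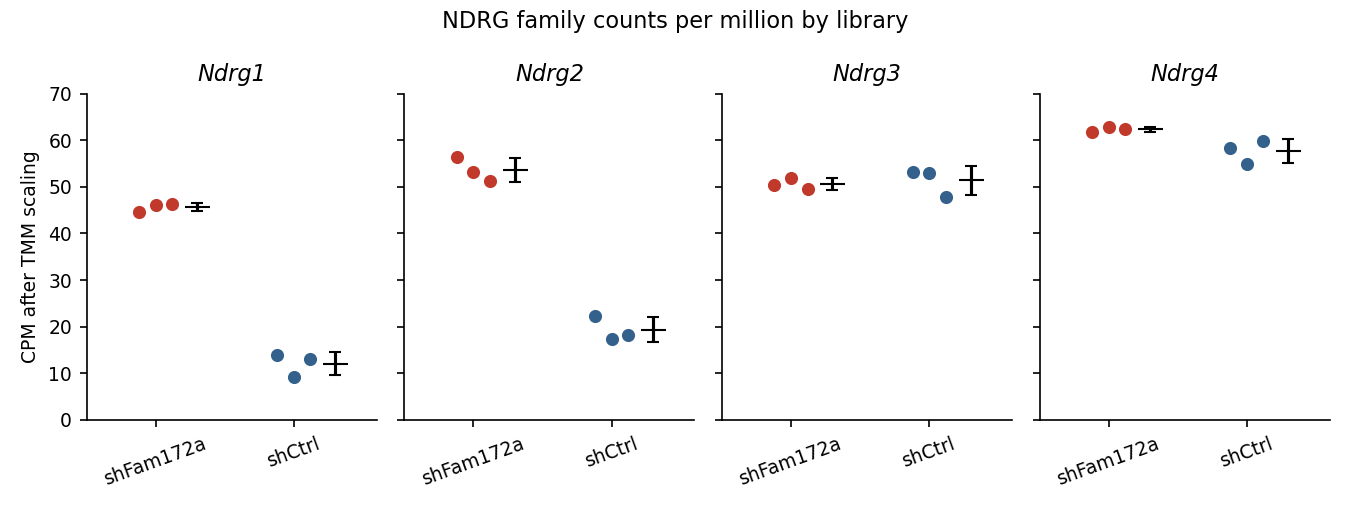
Counts scaled to library depth (CPM) after TMM scaling (y axis) of the 4 NDRG members in each library of shFam172a (red) and shCtrl (blue), with the mean and SD of each group in black (n = 3). Ndrg1 and Ndrg2 sit at 44.6 to 56.4 CPM in shFam172a and at 9.19 to 22.4 CPM in shCtrl, while Ndrg3 overlaps between the groups and Ndrg4 differs by a few CPM.

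The spread between replicates was compared with that which counting alone would give. In shCtrl, Ndrg1 had a coefficient of variation of 20.99%, against 8.45% from counting, and Ndrg2 had 13.7%, against 6.62% from counting. In shFam172a the same coefficients were 2.02% for Ndrg1, against 3.13% from counting, and 4.80% for Ndrg2, against 2.89% from counting. Ndrg3 and Ndrg4 were at 2.43% and 0.930% in shFam172a and at 6.07% and 4.32% in shCtrl. Counting alone would give them 2.97% and 2.68% in shFam172a and 4.055% and 3.82% in shCtrl. The 2 members with the large folds were thus the most variable members among the control libraries. They also had the lowest counts and the largest counting values there. Within libraries, Ndrg1 counts per Ndrg2 count were 0.791, 0.865 and 0.904 in shFam172a, against 0.625, 0.527 and 0.714 in shCtrl, so the groups did not overlap in this ratio. Ndrg4 counts per Ndrg3 count were 1.22, 1.21 and 1.26 in shFam172a, against 1.09, 1.04 and 1.252 in shCtrl, and overlapped.

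The summed level of the family was 212 ± 2.42 CPM in shFam172a and 140 ± 6.75 CPM in shCtrl (SD, n = 3 each), a ratio of 1.51. Ndrg1 and Ndrg2 together made 94.5% of the difference of 71.8 CPM. Per kilobase of merged exon, the family level was 41.5 ± 0.635 CPM per kb in shFam172a and 25.4 ± 1.44 CPM per kb in shCtrl. By this measure the family order in shFam172a was Ndrg2 at 15.8, Ndrg4 at 12.7, Ndrg1 at 6.93 and Ndrg3 at 6.04 CPM per kb, and no neighbours in this order overlapped between libraries. In shCtrl it was Ndrg4 at 11.8, Ndrg3 at 6.12, Ndrg2 at 5.70 and Ndrg1 at 1.83 CPM per kb, where Ndrg3 and Ndrg2 overlapped. Ndrg2 thus went ahead of Ndrg4 in shFam172a. The order of Ndrg1 and Ndrg3 in shFam172a depended on the length used. Per kilobase of the longest annotated transcript, Ndrg1 was at 11.3 and Ndrg3 at 12.6 CPM per kb, and per kilobase of the longest coding transcript Ndrg1 was at 15.8 and Ndrg3 at 12.6 CPM per kb. Among tested genes with an exon length, Ndrg1 lay at the 49.0th percentile of CPM per kb in shFam172a and at the 21.9th in shCtrl, and Ndrg2 at the 72.6th in shFam172a and at the 43.8th in shCtrl. Ndrg3 and Ndrg4 moved by no more than a few percentiles, at 45.3 and 66.6 in shFam172a and at 45.8 and 64.3 in shCtrl.

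As shares of the family level per kilobase, Ndrg2 was the leading member in shFam172a, at 38.1% ± 1.32 in shFam172a and 22.4% ± 1.81 in shCtrl (SD, n = 3 each). Ndrg1 made 16.7% ± 0.563 in shFam172a and 7.16% ± 1.18 in shCtrl. Ndrg4 made 30.7% ± 0.625 in shFam172a and 46.4% ± 2.13 in shCtrl, although its own level was slightly higher in shFam172a. Ndrg3 made 14.6% ± 0.272 in shFam172a and 24.1% ± 1.93 in shCtrl. The groups did not overlap for any of the 4 shares. The shares sum to a fixed total, so the lower shares of Ndrg3 and Ndrg4 are the counterpart of the higher levels of the other 2 members. Taken over counts without length, Ndrg1 made 20.9%, 21.5% and 22.1% of family counts in the shFam172a libraries, against 9.46%, 6.83% and 9.38% in the shCtrl libraries. Wilson 95% intervals for counting error ran from 19.8% to 23.3% over the shFam172a libraries and from 5.73% to 10.9% over the shCtrl libraries.

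**Figure D2:**
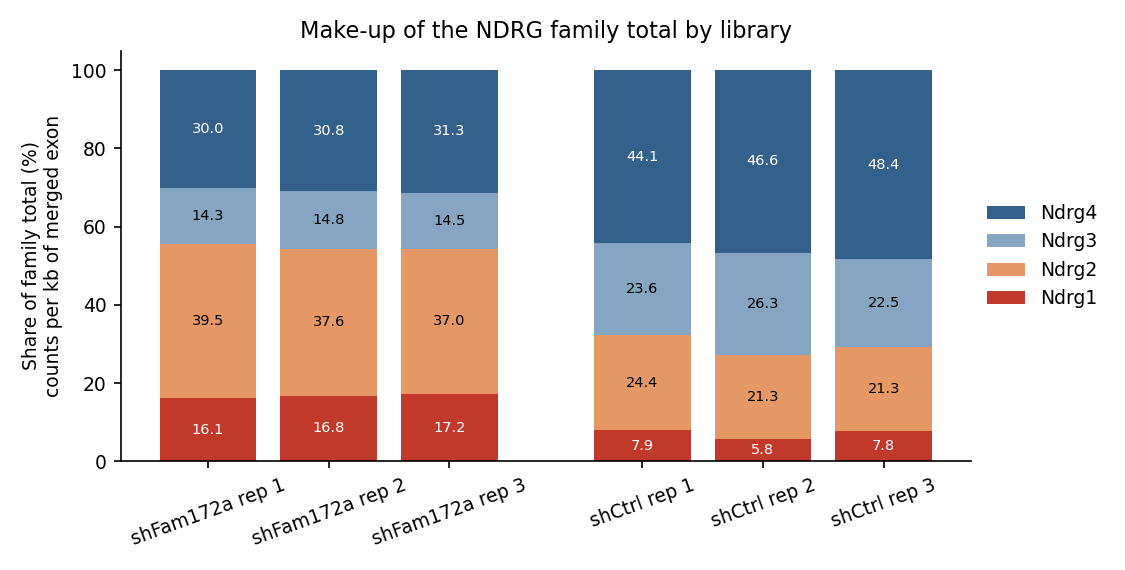
Share of each NDRG member in the summed family level (y axis, percent of counts per kb of merged exon) in each library, with the 3 shFam172a libraries left of the 3 shCtrl libraries. Ndrg1 and Ndrg2 together take more than 50% of every shFam172a bar and less than 33% of every shCtrl bar.

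Genes linked to the regulation of the family were read from 6 lists. Each list is described by its counts beside the background of 17.5% higher and 18.6% lower over all genes, whose median log2 fold change was 0.00. The lists were drawn up with earlier results of these data known, so their directions are no independent evidence.

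The first list was the MYC network, since MYC proteins repress Ndrg1 and Ndrg2. Of 12 genes tested of 13, 5 were higher and 2 lower in shFam172a, with a median log2 fold change of 0.13. Mycn, which encodes N-myc, was at 46.6, 45.6 and 43.7 CPM in shFam172a, against 42.7, 38.8 and 41.9 CPM in shCtrl. Its log2 fold change was 0.14 ± 0.055 (edgeR adjusted p = 0.039), and the call was lost with total-count scaling (adjusted p = 0.053), with DESeq2 (adjusted p = 0.11), and without shCtrl replicate 2 (0.10, adjusted p = 0.24), shCtrl replicate 3 (adjusted p = 0.056), shFam172a replicate 1 (adjusted p = 0.11) or shFam172a replicate 2 (adjusted p = 0.085). The largest called differences were those of Mxd4, Mxi1 and Mnt, which encode repressors that bind MAX in place of MYC. Mxd4 was at 13.1 ± 0.559 CPM in shFam172a and 7.02 ± 1.13 CPM in shCtrl, a log2 fold change of 0.91 ± 0.11 (adjusted p = 4.1e-08). Mxi1 rose by 0.58 ± 0.044 on the log2 scale (adjusted p = 1.3e-13), and Mnt by 0.38 ± 0.052 (adjusted p = 1.8e-07). Such repressors did not all rise, as shown by genes named here outside the naming rule. Mxd3 was lower (-0.265 ± 0.094, adjusted p = 0.024), and Mxd1 was not called (0.283 ± 0.12, adjusted p = 0.062). Mlx was the other lower gene of the list (-0.265 ± 0.052, adjusted p = 9.5e-05). Without shCtrl replicate 1, shFam172a replicate 2 or shFam172a replicate 3 the count of lower genes was 1.

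Oxygen sensing controls HIF through prolyl hydroxylases, which mark its α subunit for the ubiquitin ligase that contains VHL. Of 13 genes tested of 15, 6 were higher and 4 lower, with a median log2 fold change of 0.07. Egln1, the main prolyl hydroxylase, was at 317 ± 2.45 CPM in shFam172a and 157 ± 4.71 CPM in shCtrl, a log2 fold change of 1.02 ± 0.031 (adjusted p = 1.3e-25). Egln3, a further hydroxylase, rose by 0.70 ± 0.19 (adjusted p = 0.0031), a call lost without shCtrl replicate 2 (0.51, adjusted p = 0.064). Vhl rose by 0.41 ± 0.053 (adjusted p = 6.8e-08). Hif1a itself, the α subunit, was at 252, 262 and 259 CPM in shFam172a, against 289.5, 278 and 267 CPM in shCtrl, a log2 fold change of -0.11 ± 0.031 (adjusted p = 0.0046). That call was lost without shCtrl replicate 1 (-0.08, adjusted p = 0.06), and the value was -0.07 after removal of the trend on exon length and GC. The count of lower genes was 1 without shCtrl replicate 2 and 2 without shCtrl replicate 3 or shFam172a replicate 1.

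HIF target genes other than the family formed the list with the most calls. Of 26 genes tested of 27, 23 were higher and 1 lower in shFam172a, and the median log2 fold change was 0.99. The largest rises were those of Pdk1, an inhibitory kinase of pyruvate dehydrogenase, Gbe1, the glycogen branching enzyme, and Adm, the peptide adrenomedullin. Pdk1 was at 80.0 ± 2.42 CPM in shFam172a and 18.4 ± 2.27 CPM in shCtrl, a log2 fold change of 2.12 ± 0.062 (adjusted p = 3.5e-26). Gbe1 rose by 1.88 ± 0.14 (adjusted p = 5.3e-14) and Adm by 1.88 ± 0.29 (adjusted p = 0.0083). The call of Adm was lost when replicate number was added to the edgeR model as a block (1.88, adjusted p = 0.067). All 4 members lay within the range of these targets, Ndrg1 and Ndrg2 above the median and Ndrg3 and Ndrg4 near the lower end. The list's mean log2 CPM was 6.81, 6.81 and 6.78 in shFam172a, against 5.95, 5.71 and 5.78 in shCtrl. In shCtrl the list was lowest in replicate 2 and highest in replicate 1, as were Ndrg1 and Ndrg2 by CPM. This order is not particular to HIF targets. The recycling endosome list had it too, at 5.984, 5.941 and 5.948 in shCtrl replicates 1 to 3. So did the other NDRG1 transcription factors, at 5.51, 5.48 and 5.482. Both lists spanned less than the HIF targets did. The remaining lists had other orders in shCtrl replicates 1 to 3. They were at 4.896, 4.902 and 4.986 (MYC network), 5.61, 5.645 and 5.61 (oxygen sensing) and 6.396, 6.366 and 6.399 (NDRG1 kinases). The genes that did not rise are named here outside the naming rule. The 1 lower gene, Pfkfb3 (-0.153 ± 0.049, adjusted p = 0.013), was not called without shCtrl replicate 3 or shFam172a replicate 1. Car9 (0.05 ± 0.27, adjusted p = 0.91) and Pfkfb4 (0.101 ± 0.095, adjusted p = 0.43) were not called.

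**Figure D3:**
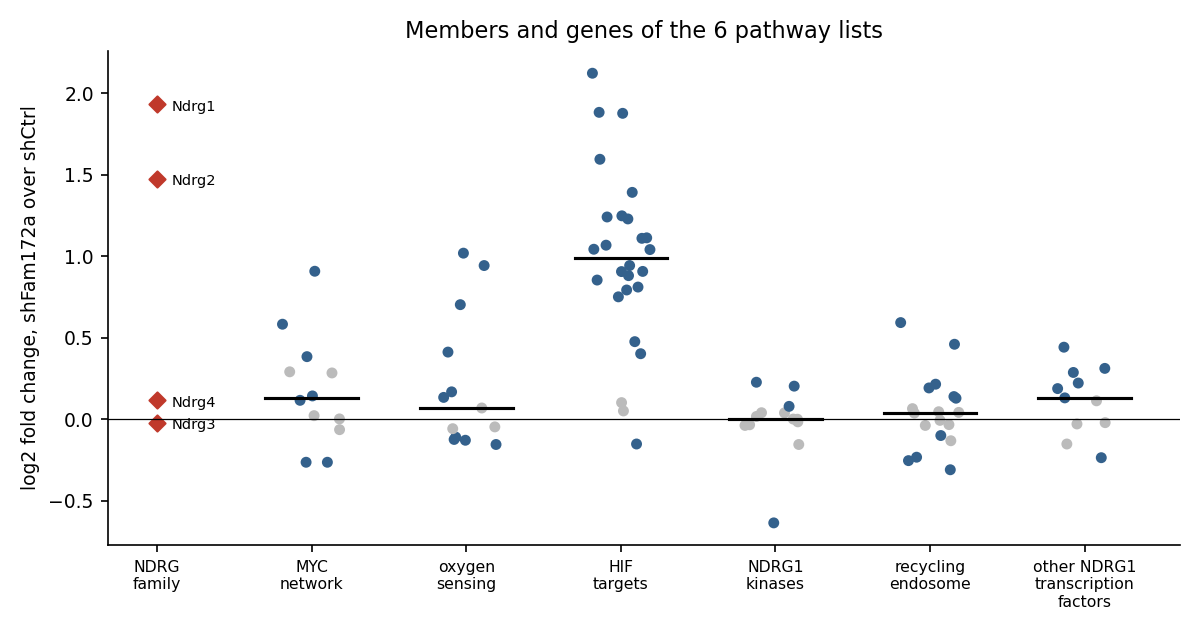
Log2 fold change of shFam172a over shCtrl (y axis) for the 4 NDRG members (red diamonds) and for each tested gene of the 6 lists (blue with an adjusted p under 0.05, grey otherwise), with the list's median as a black bar. Ndrg1 is at 1.93 and Ndrg2 at 1.47. All 4 members lie within the range of the HIF targets, which runs from -0.153 to 2.12. The list median is 0.99 for the HIF targets and between 0.00 and 0.13 for the other 5 lists.

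Of the kinases that act on the NDRG1 protein and their regulators, 13 of 16 were tested, with 3 higher, 1 lower and a median log2 fold change of 0.00. Sgk1, whose kinase phosphorylates NDRG1, was at 83.1, 84.0 and 90.5 CPM in shFam172a, against 84.7, 88.9 and 83.6 CPM in shCtrl. Its groups overlapped, with a log2 fold change of 0.00 ± 0.043 (adjusted p = 1.0). Deptor, an inhibitor of mTOR, fell by 0.64 ± 0.042 on the log2 scale (adjusted p = 2.3e-15) and was the 1 lower gene of this list. Rictor, a subunit of the mTOR complex that activates SGK1, rose by 0.23 ± 0.032 (adjusted p = 4.8e-07), and Gsk3b by 0.20 ± 0.030 (adjusted p = 1.5e-06). Phosphorylation was not measured.

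The recycling endosome list holds the compartment in which NDRG1 acts as an effector of Rab4a. Of 18 genes, all tested, 6 were higher and 4 lower, with a median log2 fold change of 0.04. Tfrc, the transferrin receptor, was at 362 ± 9.19 CPM in shFam172a and 240 ± 6.54 CPM in shCtrl, a log2 fold change of 0.59 ± 0.030 (adjusted p = 1.5e-18). Rab11fip5, an effector of Rab11, rose by 0.46 ± 0.077 (adjusted p = 8.9e-06). Ehd3, a membrane-shaping ATPase, fell by 0.31 ± 0.12 (adjusted p = 0.036), and this call was lost with DESeq2 (adjusted p = 0.11), on thinned libraries (adjusted p = 0.1), and without shCtrl replicate 1 (adjusted p = 0.22), shCtrl replicate 2 (0.11), shFam172a replicate 1 (0.069) or shFam172a replicate 3 (0.092). Rab4a itself, named for its role and not by the naming rule, had a log2 fold change of -0.13 ± 0.063 (adjusted p = 0.097). The count of lower genes was 2 without shCtrl replicate 1, shCtrl replicate 3 or shFam172a replicate 3.

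Other transcription factors with a described role at NDRG1 were tested for 11 of 15 genes, with 6 higher, 1 lower and a median of 0.13. Fos and Jun, which pair as AP-1, rose by 0.44 ± 0.11 (adjusted p = 0.0019) and 0.31 ± 0.049 (adjusted p = 3.6e-06). Nfkb1, an NF-kB subunit, rose by 0.29 ± 0.072 (adjusted p = 0.0018). Without shCtrl replicate 2 the count of lower genes was 2.

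The genes whose profile over the 6 libraries was most like each member were found by the root mean square difference between log2 CPM profiles, each centred on its own mean, among 10399 other genes with a mean of at least 5 CPM. The libraries share depth and treatment, so the measure is a description. Nearest to Ndrg1 was Gbe1 at a difference of 0.069, then Cox4i2, a subunit isoform of cytochrome c oxidase, at 0.097. Selenbp1 (0.145), Kbtbd11 (0.154) and Pdk1 (0.176) followed, and Ndrg2 was at place 9 (0.268). Cox4i2 was at 16.9 ± 0.544 CPM in shFam172a and 4.65 ± 1.21 CPM in shCtrl, a fold close to that of Ndrg1. Nearest to Ndrg2 was Sncb, β-synuclein, at 0.030, with 98.8 ± 5.13 CPM in shFam172a and 35.4 ± 5.15 CPM in shCtrl. Anxa2 (0.067), Bnip3 (0.069), Aldoc (0.087) and Ankrd37 (0.118) followed, and Ndrg1 was at place 32. The HIF target list held 2 of the 5 genes nearest to Ndrg1 (Gbe1 and Pdk1) and 3 of the 5 nearest to Ndrg2 (Anxa2, Bnip3 and Ankrd37). For a member with a large fold, this measure is small only in genes of a like fold. Of all genes tested, 0.85% had a log2 fold change of at least 1. The family was chosen by its fold and the list was drawn up with earlier results known, so nothing is read from these counts.

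**Figure D4:**
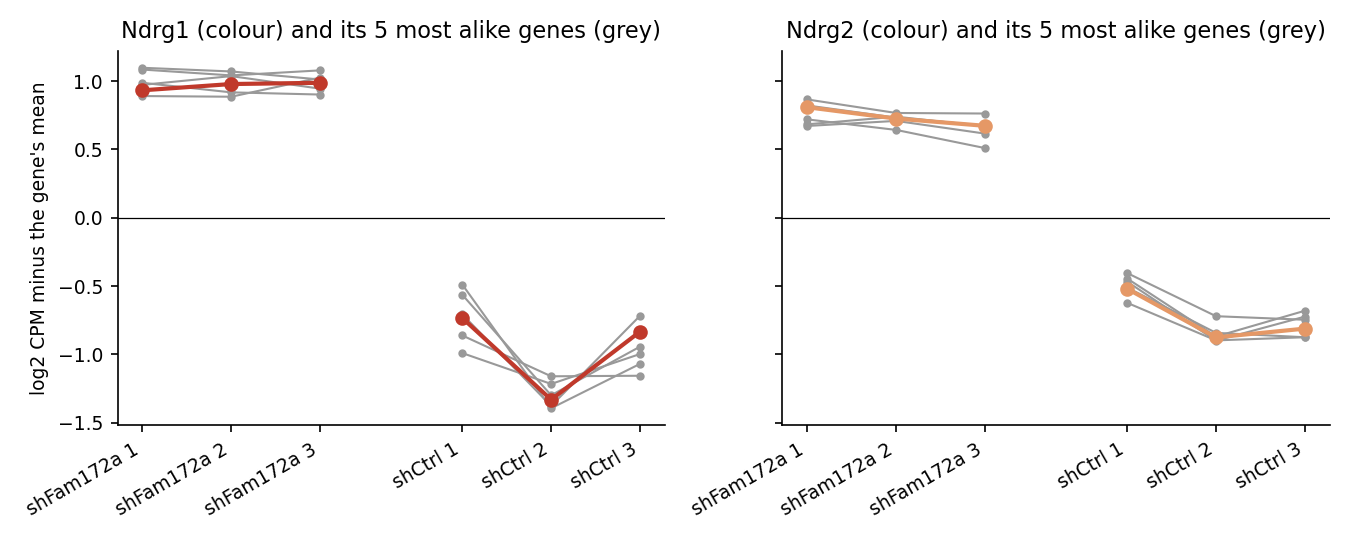
Log2 CPM of Ndrg1 (left, red) and Ndrg2 (right, orange) and of the 5 genes most like each (grey), less the gene's own mean over 6 libraries (y axis), in the 3 shFam172a and the 3 shCtrl libraries. Lines join the values of 1 gene within a group. In shCtrl, Ndrg1 has its lowest value in replicate 2 and Ndrg2 its highest in replicate 1.

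Aldoc, aldolase C, is also an astrocyte marker, at 71.8 ± 2.32 CPM in shFam172a and 28.7 ± 4.27 CPM in shCtrl. It was the only called gene among 3 tested of 9 astrocyte markers, whose summed level was 105 to 110 CPM in shFam172a and 58.9 to 71.9 CPM in shCtrl. The other 2 tested markers were not called, Sox9 at 29.99 CPM in shFam172a and 31.8 CPM in shCtrl, and Aldh1l1 at 6.22 CPM in shFam172a and 5.01 CPM in shCtrl. Gja1 and Aqp4 had 0 counts in every library, and Gfap was at 0.119 CPM in shFam172a and 0.0805 CPM in shCtrl. Of 13 Schwann cell and oligodendrocyte markers, 6 were tested, 1 was higher and 1 lower, and Mag, Olig1 and Olig2 had 0 counts. The sum of the 13 was 341 to 346 CPM in shFam172a and 314 to 320 CPM in shCtrl. Most of it was Pmp22, the higher gene, at 290 CPM in shFam172a and 261 CPM in shCtrl. Among 9 fibroblast markers 4 were tested and 1 was higher. Among 8 macrophage markers Cd68 alone was tested, with Ptprc and Itgam at 0. Cd68 was called higher (edgeR adjusted p = 0.048) on only 3 to 24 counts per library. Its level was 1.02 CPM in shFam172a and 0.514 CPM in shCtrl. Beside these counts of called markers, 36.1% of all genes tested were called in either direction.

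Ndrg3 and Ndrg4 had flat profiles, with many genes nearly identical to them. Nearest to Ndrg3 were Tsta3 (0.013), Abhd12 (0.016), Nprl3 (0.019), Usp44 (0.021) and Cluap1 (0.021), of which none was called. Nearest to Ndrg4 were Gse1 (0.006), Tbc1d9b (0.010), Snd1 (0.015), Tle3 (0.015) and Pdcd6ip (0.016), whose log2 fold changes were 0.11 to 0.12 with adjusted p of 0.0021 to 0.033. The difference between the profiles of Ndrg3 and Ndrg4 was 0.106, and that between Ndrg1 and Ndrg3 was 0.998.

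The 5 protein-coding genes on each side of each member were read to place the folds in their genomic surroundings. Of 40 neighbours, 26 were tested, 8 were higher and 6 lower, beside 17.5% higher and 18.6% lower over all genes, with a median log2 fold change of 0.13. Next to Ndrg1, 4 of 7 tested genes were higher and 0 lower. St3gal1, a sialyltransferase whose gene lies 133 kb upstream of the Ndrg1 start on the same strand, at chr15:67102875-67176830, was at 4.77, 6.22 and 5.62 CPM in shFam172a, against 1.11, 0.701 and 1.06 CPM in shCtrl. Its log2 fold change was 2.54 ± 0.23 (adjusted p = 2e-11), on 9 to 13 counts per shCtrl library. The other 6 were smaller. Tmem71 (0.58 ± 0.14, adjusted p = 0.00098) and Phf20l1 (0.15 ± 0.036, adjusted p = 0.0012) rose, and Phf20l1 was at 0.085 after removal of the length and GC trend. Zfat rose by 0.30 ± 0.11 (adjusted p = 0.033), but was not called with DESeq2 (0.1) or without shCtrl replicate 2 (0.20), shFam172a replicate 1 (0.081) or shFam172a replicate 2 (0.067), as adjusted p. Wisp1, the nearest neighbour at 6.12 kb (0.18 ± 0.079, adjusted p = 0.064), and Col22a1 (0.11 ± 0.047, adjusted p = 0.08) were not called, except with upper quartile scaling (adjusted p = 0.046 and 0.045). Fam135b was not called (0.32 ± 0.14, adjusted p = 0.064), and its value hung on single libraries, at 0.11 (adjusted p = 0.6) without shCtrl replicate 2, 0.22 (adjusted p = 0.26) without shFam172a replicate 2, and 0.37 to 0.45 (adjusted p = 0.026 to 0.046) without any one of the other 4. It was also called with no filter on low counts (adjusted p = 0.036) and, at the threshold, with upper quartile scaling (adjusted p = 0.05).

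Around Ndrg2, 5 of 10 neighbours were tested, and Zfp219, a zinc finger gene, was the only one called, at 0.22 ± 0.060 (adjusted p = 0.0031, and 0.13 on the log2 scale after removal of the length and GC trend). Mettl17, at 12.2 kb, had 0.19 ± 0.091 (adjusted p = 0.11, and 0.047 without shFam172a replicate 2), Arhgef40 -0.04, Tmem253 0.40 ± 0.25 and Ang4 0.87 ± 0.45, the last on 4 to 24 counts per library. Tppp2 and Slc39a2, the nearest protein-coding gene on each side of Ndrg2, had at most 10 counts in any library.

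Around Ndrg3, 2 of 7 tested genes were higher (Myl9 at 0.54 and Soga1 at 0.18) and 3 lower. After removal of the length and GC trend Soga1 was at 0.09. The lower ones were Dsn1, a kinetochore subunit 3.21 kb away, at -0.26, Samhd1 at -0.25 and Rbl1, a retinoblastoma relative, at -0.37, with adjusted p of 1.2e-08 to 0.00013. Tgif2 and 1110008F13Rik were not called. Around Ndrg4, Cnot1 was higher, at 0.15 (0.065 after removal of that trend), and Gins3 (-0.43), Setd6 (-0.23) and Got2 (-0.19) were lower, while Cfap20, Csnk2a2 and Slc38a7 were not called. Setd6, at 0.761 kb from Ndrg4, was not called without shCtrl replicate 3 (-0.19, adjusted p = 0.065).

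**Figure D5:**
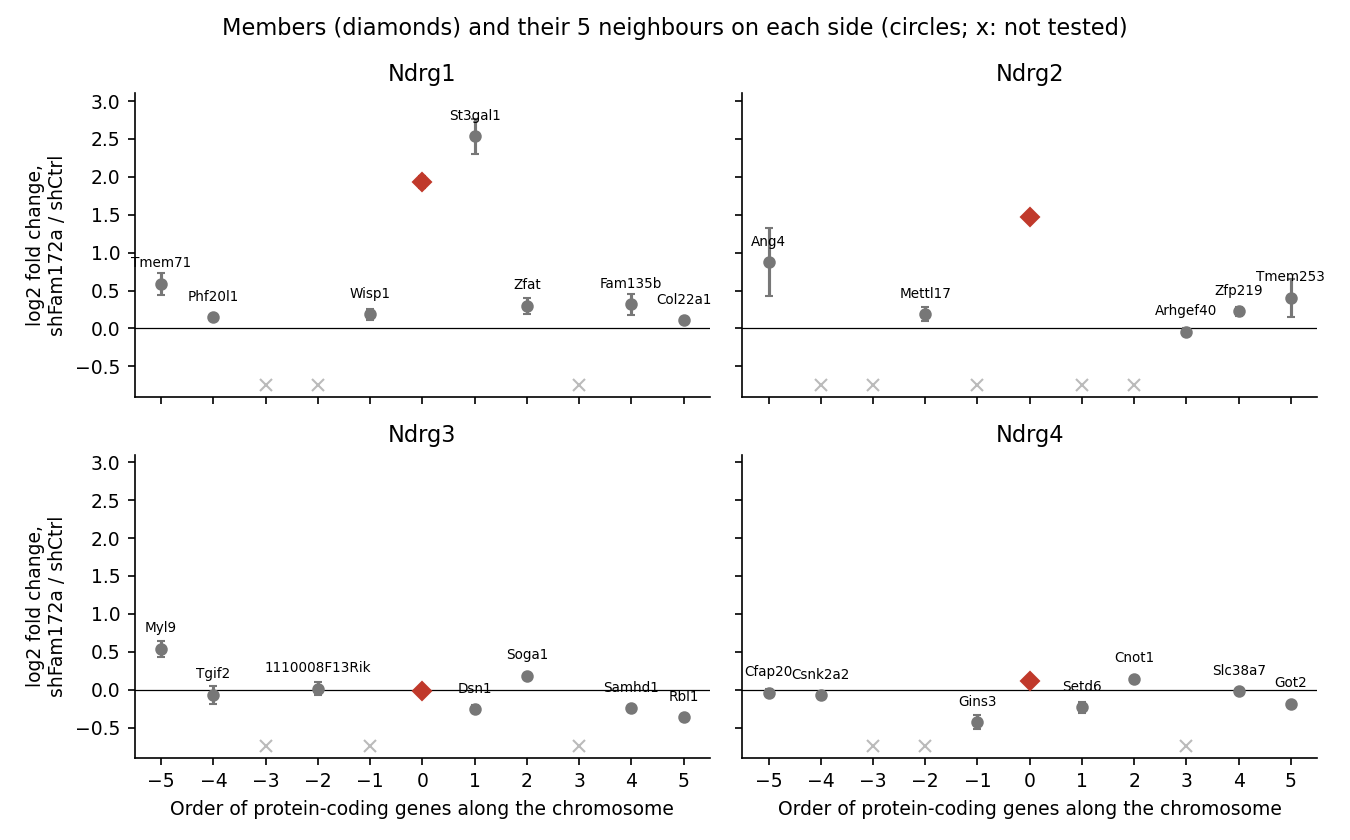
Log2 fold change of shFam172a over shCtrl (y axis, with SE) for each NDRG member (red diamond) and its tested protein-coding neighbours (grey circles) by their order along the chromosome (x axis); crosses at the bottom mark neighbours that were not tested. St3gal1, next to Ndrg1, is at 2.54, and the other neighbours lie between -0.43 and 0.87.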

How the data were processed

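RNA of 6 Neuro2a samples was sequenced as read pairs. The files as deposited hold a whole-number count for each gene symbol, without normalization by the authors. Per the submitters' processing notes, HISAT2 2.0.5, HTSeq and mm10 were used; which annotation and strand setting is not given in the sources. The 5 rows that name no gene were left out (17.4% in shFam172a and 16.5% in shCtrl for pairs in no gene).

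After filterByExpr and TMM scaling, edgeR 4.0.16 (R 4.3.3) gave a two-sided quasi-likelihood test of group alone (robust glmQLFit), with Benjamini-Hochberg adjustment over 12820 genes and a threshold of 0.05. The script was tested on simulated data. CPM follows TMM. Replicate pairs of 1 group differed beyond sampling noise, at a chi-square per degree of freedom of 1.61 to 2.84, highest with shFam172a replicate 3. GENCODE M21 matched 98.4% of symbols; Biopython 1.88 aligned coding sequences. Alternatives were DESeq2 1.42.0, limma 3.58.1, other scalings, filters, lengths, thinning, removal of the trend on exon length and GC, a replicate block and leaving out each library.

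Members and lists were chosen with earlier results of these data known. Named were the members, Fam172a, Mycn, Hif1a, Sgk1, the 3 largest called changes per list at a mean of at least 2 CPM, all tested neighbours and the 5 genes most like each member.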

Additional observations from a re-analysis of the deposited data

Results flagged for a closer look

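A pair of values lay outside the gene counts and above the level of the shCtrl libraries. Read pairs that fell in no gene made 17.4% ± 0.388 of all read pairs recorded per library in shFam172a and 16.5% ± 0.0594 in shCtrl (SD, n = 3 each). Read pairs with several alignments made 10.3% ± 0.234 in shFam172a and 9.64% ± 0.061 in shCtrl. The groups did not overlap in either value. Neither kind of pair is counted for an NDRG member, and their part in the members' values was not tested.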

How the results depend on the processing

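The log2 fold change of each member moved by less than the spread between replicates under all 16 alternatives: 1.76 to 2.06 for Ndrg1, 1.40 to 1.59 for Ndrg2, -0.07 to 0.01 for Ndrg3 and 0.08 to 0.14 for Ndrg4. Fam172a stayed between -1.22 and -1.05. Genes called over the whole table ranged from 1725 to 2486 higher and 1836 to 2547 lower; the split was 2486 higher and 2171 lower with upper quartile scaling, 2093 and 2547 with total counts, and 1725 and 1836 with DESeq2.

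The difference in family share per kilobase, shFam172a minus shCtrl, moved with the length used. Without length it was 12.97 points for Ndrg1, 11.5 for Ndrg2, -12.75 for Ndrg3 and -11.7 for Ndrg4. With the longest coding transcript, an alternative chosen after seeing the data, it was 12.09 for Ndrg1 and -11.6 for Ndrg3.

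Counts of lower list genes were small and moved. With DESeq2 they were 1 in the MYC network, 2 in oxygen sensing, 0 among HIF targets and 2 in the recycling endosome. Upper quartile scaling gave 2 in oxygen sensing, and thinning to the smallest total gave 1 in oxygen sensing and 0 among HIF targets. Among other NDRG1 transcription factors 2 were lower with no filter and with limma-voom. Leaving out single libraries gave 1 to 2 in the MYC network, 1 to 3 in oxygen sensing, 0 to 1 among HIF targets, 2 to 4 in the recycling endosome and 1 to 2 among the transcription factors. With 3 neighbours on each side, 4 were higher and 3 lower. The causes were not tested, apart from the fewer neighbours and libraries.

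Same-numbered samples did not deviate together (correlations -0.01 to -0.004). Pairs of unlike number lay between -0.017 and 0.021. The numbers were therefore not used to pair samples in the main test. With 3 libraries per group, these correlations cannot decide whether samples were paired. With the replicate block, 2150 genes were higher and 2318 lower, 2 of the transcription factors were lower, and Adm lost its call at a fold as large as before (1.88, adjusted p = 0.067). Of single named genes, 20 values in 7 genes lost a call and 9 in 4 genes gained one; none that was called changed sign. Removing the trend on exon length and GC, a value without a test, moved 5 more: Rictor (0.16), Rab11fip5 (0.39), Arhgef40 (-0.15), Soga1 (0.09) and Cnot1 (0.065). Ndrg1 and Ndrg2 rest on 118 to 261 counts per shCtrl library, which limits their precision there.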
